A study of Mus musculus with 16 samples.

Results

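The mitochondrial genome transcripts are the 37 genes of the mouse mitochondrial chromosome whose symbols start with mt-: 13 mRNAs, 22 tRNAs and 2 rRNAs. They were found by matching the gene identifiers of the count table to the annotation, and they are 37 of the 55536 genes in the table. Gene expression had been measured by RNA sequencing in 16 mouse libraries. There were 3 bone marrow libraries labelled KLF WT and 3 labelled KLF K74R, 2 and 2 libraries of MSC, and 3 and 3 tumors. K74R is written as a missense change, the titles call the same samples KO, and which KLF gene carries it is not stated in the labels. The level of no gene can check the genotype of a missense allele. The tumors were grown from MC38, a mouse colon adenocarcinoma line, to at most 1000 mm3. The design text speaks of mutant and WT mice, so the genotype of a tumor is taken here as that of its host, and a tumor library mixes RNA of the line with RNA of host cells. The abbreviation MSC is not expanded in the labels, and age, sex and strain are not given there. Nothing says that replicates came from separate mice or cultures, so the p-values measure the spread between these libraries, which may be technical. In bulk libraries, fewer cells of a type and less RNA per cell cannot be told apart.

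The mitochondrial chromosome is transcribed from both strands as long precursors, which are cut at the tRNAs into separate mRNAs and rRNAs. The 13 mRNAs encode membrane subunits of the respiratory chain: 7 of complex I (the mt-Nd genes), mt-Cytb of complex III, mt-Co1, mt-Co2 and mt-Co3 of cytochrome c oxidase, and mt-Atp6 and mt-Atp8 of ATP synthase. The 2 rRNAs, mt-Rnr1 (12S) and mt-Rnr2 (16S), and the tRNAs serve the mitochondrial ribosome. All but 1 of the mRNAs lie on the same strand, and mt-Nd6 is the exception.

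The following sequences (GENCODE release M21 on GRCm38, 5′ to 3′ on the strand of each gene) show which mitochondrial genes have a near-identical copy or overlap another gene. A stretch of chromosome 1 (chr1:24611535-24616188, minus strand, 4654 bases) is a near-identical copy of mitochondrial positions chrM:6390-11042 (4653 bases). Positions in a gene are counted from 1 at its 5′ end. The start of mt-Nd3 differs from that of its copy Gm28438 by T3C, shown in capitals, and over all 345 bases the pair were 99.7% identical.
mt-Nd3 (chrM:9459-9501, plus): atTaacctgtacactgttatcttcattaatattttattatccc
Gm28438 (chr1:24613077-24613119, minus): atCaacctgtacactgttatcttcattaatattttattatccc
The copy begins inside mt-Co1, at base 1063 of 1545. This first stretch of the shared part carries the only mismatch of its 483 bases, A1066T, in capitals.
mt-Co1 (chrM:6390-6433, plus): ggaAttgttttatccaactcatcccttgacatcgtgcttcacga
Gm29216 (chr1:24616145-24616188, minus): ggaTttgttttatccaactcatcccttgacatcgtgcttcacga
The first 681 of the 684 bases of mt-Co2 were all the same in its copy Gm28661, so no base of that stretch tells these 2 genes apart. Their shared first 120 bases are printed without capitals for that reason.
mt-Co2 and Gm28661 (chrM:7013-7132, plus): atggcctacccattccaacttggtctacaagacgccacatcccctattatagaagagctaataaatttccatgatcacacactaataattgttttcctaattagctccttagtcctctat

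Genes also overlap on the mitochondrial chromosome itself. The mRNAs of mt-Nd5 and mt-Nd6 lie on opposite strands and share their last 14 bases, in capitals below, which are 2.7% of the shorter gene.
mt-Nd5, last 60 bases (chrM:13506-13565, plus): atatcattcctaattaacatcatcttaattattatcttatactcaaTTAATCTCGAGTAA
mt-Nd6, last 60 bases (chrM:13552-13611, minus): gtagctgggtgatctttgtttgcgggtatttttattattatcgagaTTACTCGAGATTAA
The reading frames of mt-Atp8 and mt-Atp6 share 43 bases, 21.1% of mt-Atp8, which start with the ATG of mt-Atp6 in capitals.
mt-Atp8 and mt-Atp6 overlap (chrM:7927-7969, plus): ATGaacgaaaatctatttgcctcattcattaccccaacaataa
The 3 tRNA genes with the most counts, all annotated on the minus strand, are shown whole.
mt-Tp (chrM:15356-15422, minus): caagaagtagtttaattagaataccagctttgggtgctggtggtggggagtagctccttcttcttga
mt-Tn (chrM:5089-5159, minus): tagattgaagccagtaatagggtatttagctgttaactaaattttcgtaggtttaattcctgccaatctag
mt-Tc (chrM:5192-5257, minus): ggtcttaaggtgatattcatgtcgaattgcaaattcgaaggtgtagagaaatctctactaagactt

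Library totals lay between 14067259 and 18923751 counts, so 3 counts, the least taken as a level, correspond to 0.159 to 0.213 CPM, counts scaled to 1000000 per library. The table behaved as counted without regard to strand. All 111 genes wholly covered by a gene on the opposite strand with at least 10000 counts in total were at 0 in every library, as were all 225 covered on the same strand. Plus and minus below are therefore the annotated strand: a read from either strand over mt-Nd6 would be counted as mt-Nd6. The column names of the WT tumors hold a letter R that those of the K74R tumors lack, and the WT MSC columns hold KCF where the K74R columns hold KLF. The sources used here do not say what these letters mark, and whatever they mark cannot be told apart from genotype. Epithelial markers were near absent from the MC38 tumors: 1 of 8 reached 1 CPM, and their sum was 5.40 to 9.57 CPM in WT and 5.02 to 7.03 CPM in K74R hosts. Mesenchymal stroma markers summed to 11429 CPM or more in every MSC library, and macrophage markers to 2122 CPM or more.

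Counts along the chromosome followed the nuclear copy. The 6 mRNAs wholly within the copied stretch, mt-Co2, mt-Atp8, mt-Atp6, mt-Co3, mt-Nd3 and mt-Nd4l, had mean counts per library of 15.6 to 460, which is 44.7 to 673 counts per kb. The 5 mRNAs wholly outside it (mt-Nd1, mt-Nd2, mt-Nd5, mt-Nd6 and mt-Cytb) had 23378 to 53220 counts per kb. In mt-Co1, 31.3% of the gene lies in the copy, and in mt-Nd4 63.6%, and they had 108018 and 16456 counts per kb of whole gene. Together the 6 mRNAs within the copy held 0.146% to 0.456% of the counts on the 13 mRNAs. The chromosome 1 copies themselves had mean counts of 308 (Gm29216), 323 (Gm28661), 572 (Gm10925), 351 (Gm28437), 224.5 (Gm28438), 46.4 (Gm10222) and 127 (Gm28439). Single libraries weigh on some of these means. Gm10925 had 1984 counts in tumor WT replicate 3 and 2784 in tumor K74R replicate 3, against 107 to 559 in the rest. Gm28661 had 2292 in tumor K74R replicate 3, against 80 to 434 in the rest. The sources used here do not say how reads that match several places were counted, and its part in the low values was not tested. Values of these 6 mRNAs are given below as counted, and they are no measure of the true levels of cytochrome c oxidase or ATP synthase transcripts. Other nuclear copies are less alike. Gm13340 on chromosome 2 matched all of mt-Co1 at 97.6% identity and had a mean count of 458, Gm13341 matched mt-Co2 at 95.9% with 22.4, and Gm13339 matched mt-Nd2 at 96.7% with 17.8.

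**Figure D1:**
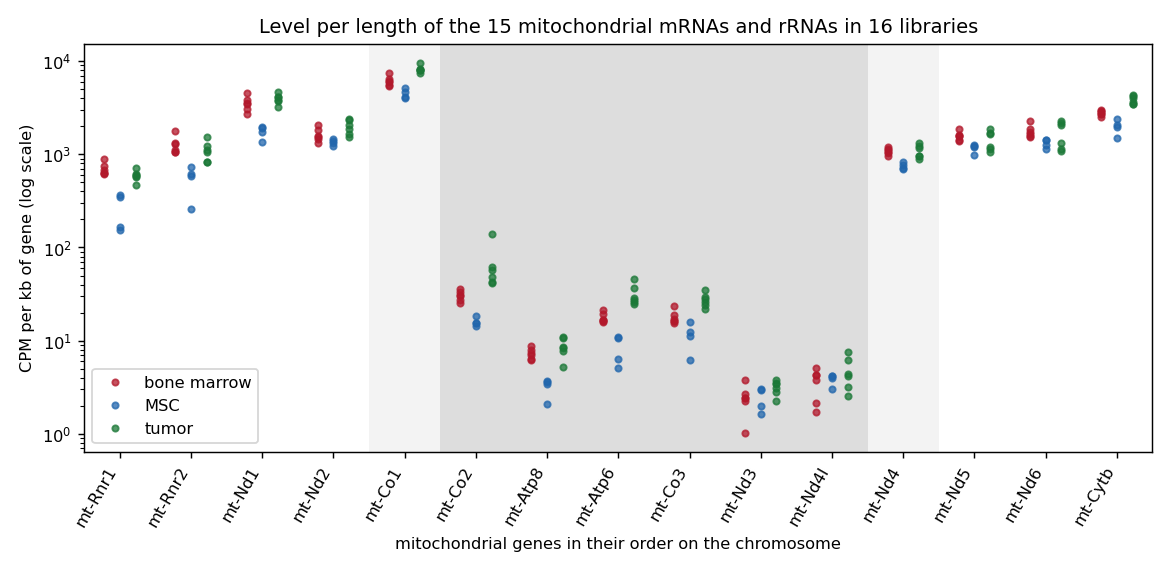
Level per length (CPM per kb of gene, log axis) of the 13 mRNAs and 2 rRNAs in each of the 16 libraries, in chromosome order; each point is 1 library, dark grey marks genes wholly within the stretch copied on chromosome 1 and light grey genes partly within it. The 6 genes in dark grey lie below every other gene in all 3 tissues.

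Per kb of sequence outside the copy, mt-Co1, the catalytic subunit of cytochrome c oxidase, had the highest level in each tissue. It stood at 8956 ± 1040 CPM per kb in bone marrow (SD, n = 6), 6507 ± 802 in MSC (n = 4) and 12009 ± 1060 in tumors (n = 6). In bone marrow the order then ran mt-Nd1 (3514 ± 629), mt-Nd4 (2992 ± 247), mt-Cytb (2768 ± 165), mt-Nd6 (1779 ± 272), mt-Nd2 (1626 ± 270), mt-Nd5 (1581 ± 170), mt-Rnr2 (1268 ± 284) and mt-Rnr1 (695 ± 108). After mt-Co1, neighbours in this order lay within their SDs of each other down to mt-Cytb, and again from mt-Nd6 to mt-Rnr2. In tumors the order was the same 9 genes with mt-Nd1 (3944 ± 489) and mt-Cytb (3855 ± 392) level with each other, ahead of mt-Nd4 (2970 ± 488), mt-Nd2 (1967 ± 352), mt-Nd6 (1678 ± 550), mt-Nd5 (1438 ± 340), mt-Rnr2 (1103 ± 273) and mt-Rnr1 (591 ± 78.8). Neighbours from mt-Nd2 to mt-Rnr2 did not differ beyond their spread there. In MSC, mt-Nd4 (2052 ± 149), mt-Cytb (1962 ± 366) and mt-Nd1 (1742 ± 285) did not differ beyond their spread, nor did mt-Nd2 (1346 ± 91.4), mt-Nd6 (1311 ± 136) and mt-Nd5 (1162 ± 128) as neighbours. The rRNAs came last there too, mt-Rnr2 at 548 ± 206 and mt-Rnr1 at 259 ± 115, within their SDs of each other. The SDs in these orders are taken over libraries and ignore that the genes were measured in the same libraries. All counts of mt-Co1 and mt-Nd4 were divided by their 1062 and 502 bases outside the copy. This takes no count to come from the bases inside, which was not tested. The place of mt-Nd4 rests on it: per kb of whole gene, its mean count of 16456 lay below the 23378 of mt-Nd5. Within single MSC libraries, mt-Rnr2 (1582 bases) had 277% to 575% of the counts of mt-Rnr1 (955 bases). The library kit selects polyadenylated RNA, so the rRNA and tRNA levels are those of what passed that selection, not of the whole cell.

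The tRNA genes held 0.0898% to 0.27% of the mitochondrial counts. Of the 22, mt-Td, mt-Tf, mt-Tg and mt-Tk were at 0 in all 16 libraries, 10 had a count in some library with a mean under 10, and 8 had a mean of at least 10. The highest was mt-Tp (proline), with a mean of 395 counts and a range of 167 to 620, followed by mt-Tn (asparagine, 119), mt-Tc (cysteine, 84.5) and mt-Tl1 (leucine, 54.6). The other 4 were mt-Tl2 (leucine, 16.5), mt-Th (histidine, 14.8), mt-Tw (tryptophan, 14.6) and mt-Te (glutamate, 13.2). Of the 14 tRNA genes annotated on the plus strand, 4 had a mean of at least 10, and of the 8 on the minus strand also 4. Summed over genes, the minus strand had 620.75 tRNA counts per library and the plus strand 112.5. The 5 tRNA genes within the chromosome 1 copy all had means under 1. Many tRNA genes lie directly beside another gene, some with 1 to 3 shared bases, and genes covered by another gene were at 0 in this table. The part of reads that reach over 2 genes in the tRNA values, and in the difference between the strands, was not tested.

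**Figure D2:**
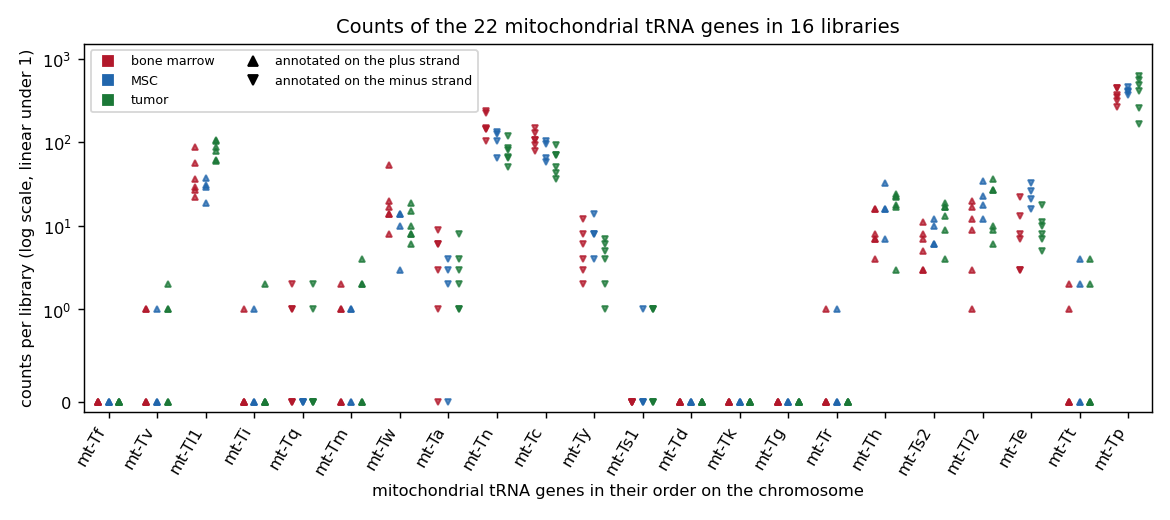
Counts per library of the 22 mitochondrial tRNA genes in chromosome order (log axis, linear under 1); each triangle is 1 library, coloured by tissue and pointing up for the plus and down for the minus strand. mt-Tp stands highest, at 167 to 620 counts, and 4 genes are at 0 throughout.

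The 37 genes took a larger share of the library in tumors and bone marrow than in MSC. All shares here are as counted, and the 6 mRNAs within the copy add little to them. The share was 2.68%, 2.46% and 3.14% in WT and 2.25%, 2.60% and 2.35% in K74R bone marrow. In MSC it was 1.87% and 1.47% in WT and 1.68% and 1.88% in K74R. In tumors it was 3.26%, 3.14% and 3.22% in WT and 2.95%, 2.58% and 3.10% in K74R hosts. No MSC library reached the lowest of the other tissues, and the K74R tumors all lay below the WT tumors. The 95% Wilson interval of a single library's share was at most 0.00911 percentage points to either side and covers counting error only, because the reads carry no molecular identifiers and copies of 1 molecule cannot be recognised. By exact permutation tests (two-sided, adjusted by Benjamini-Hochberg over 12 tests of shares), MSC minus bone marrow was -0.857 points (p = 0.00476, the smallest this design gives, adjusted p = 0.0190). Tumors minus MSC was 1.32 points (the same p and adjusted p), and all 4 MSC libraries were lower than every library of the other tissue in both cases. Tumors exceeded bone marrow by 0.460 points, with an adjusted p of 0.0649 in the exact permutation test. K74R differed from WT by -0.360 points in bone marrow (adjusted p = 0.267), 0.113 points in MSC (adjusted p = 0.667) and -0.329 points in tumors (adjusted p = 0.150), all exact permutation tests. With a library left out the bone marrow value ran from -0.51 (without WT replicate 2) to -0.17 (without WT replicate 3), and the tumor value from -0.442 (without K74R replicate 3) to -0.18 (without K74R replicate 2). The smallest raw p possible is 0.1 with 3 against 3 libraries, which the tumors gave, and 0.33 with 2 against 2.

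**Figure D3:**
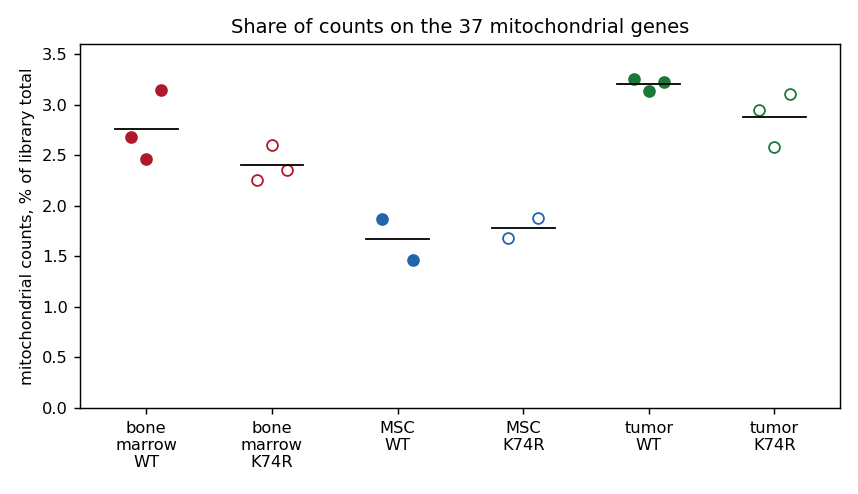
Share of each library's counts on the 37 mitochondrial genes (percent of the library total) for the 6 groups; points are libraries, filled for WT and open for K74R, and lines are group means. All 4 MSC points lie between 1.47% and 1.88%, below every other library.

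The make-up of the mitochondrial counts differed as well. The rRNAs held 10.3% ± 0.824 of them in bone marrow (SD, n = 6), 6.36% ± 2.02 in MSC (n = 4) and 7.62% ± 1.61 in tumors (n = 6). Tumors minus bone marrow was -2.65 points (exact permutation test, adjusted p = 0.0325) and MSC minus bone marrow -3.91 points (exact permutation test, adjusted p = 0.0190), and tumors minus MSC was 1.26 points with an adjusted p of 0.332 in the same exact test. The call of tumors minus bone marrow was lost without bone marrow WT replicate 3 (-2.35) or K74R replicate 2 (-2.59), each with an adjusted p of 0.0584 in the exact permutation test. In MSC the rRNA share was 5.75% and 3.76% in WT against 7.93% and 7.98% in K74R, without overlap. The share of mt-Nd6 among the 13 mRNAs was 3.99% ± 0.314 in bone marrow, 4.25% ± 0.397 in MSC and 3.06% ± 0.793 in tumors (SD, n = 6, 4 and 6; exact permutation tests, adjusted p = 0.0649 for tumors against bone marrow and 0.0653 for tumors against MSC). The tumors fell into the genotypes: 3.67%, 3.73% and 3.93% in WT against 2.26%, 2.34% and 2.42% in K74R hosts. The mRNAs within the copy hardly enter these shares as counted.

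In tumors of K74R hosts, mt-Nd6, the complex I subunit encoded on the minus strand, was counted lower than in WT hosts. Reads of either strand over the gene enter this value, and how many came from its own transcript was not tested. The counts of mt-Nd6 were 20648, 20456 and 19778 in WT against 11053, 8929 and 11646 in K74R hosts. As CPM these were 1126, 1081 and 1176 (1128 ± 47.6, SD, n = 3) against 596, 561 and 686 (614.5 ± 64.8, n = 3), and the groups did not overlap. Tested with edgeR's quasi-likelihood test over all genes, the log2 fold change was -0.88 ± 0.09 (SE; Benjamini-Hochberg adjusted p = 0.0260). It was the only mitochondrial gene of 22 tested that passed the threshold of 0.05, where 6 of all 14779 genes tested did (0.0406%); 9 of the 22 had an unadjusted p under 0.05. DESeq2 called 5 mitochondrial genes in place of 1, beside 195 of 14779 genes in all. The call of mt-Nd6 was lost without WT replicate 1, 2 or 3 (adjusted p = 0.127, 0.127 and 0.129) or K74R replicate 2 (0.111), and in a model of all 16 libraries (0.166), with log2 fold changes of -0.98 to -0.69 over all alternatives tried. Without K74R replicate 1 it was called (adjusted p = 0.0161), as it was without K74R replicate 3 (0.00517).

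mt-Nd5, another complex I subunit, which ends on the same 14 bases from the other strand, had 3430, 3082 and 2991 CPM in WT against 2201, 1935 and 2103 CPM in K74R hosts, again without overlap. Its log2 fold change was -0.61 ± 0.08 (SE), with an adjusted p of 0.0607 by edgeR's test. It passed the threshold with DESeq2 (adjusted p = 8.48e-10), with no filter on low counts (3.22e-11), with the replicate number as a block (0.0288) and without K74R replicate 1 (0.0222). All 4 of these fits called more of the genome than the 6 genes of the main fit. In the same order they called 195 of 14779, 810 of 29690, 13 of 14779 and 124 of 15077 genes in all. mt-Nd4 gave -0.42 (adjusted p = 0.194), mt-Nd2 -0.44 (0.222) and mt-Nd1 -0.27 (0.370), and mt-Cytb of complex III -0.25 (0.307), none past the threshold by edgeR. DESeq2 called mt-Nd4 (adjusted p = 0.000141), mt-Nd2 (0.00118) and mt-Cytb (0.0349), and edgeR with no filter on low counts called mt-Nd4 (4.48e-05), mt-Nd2 (1.22e-05) and mt-Nd1 (0.0293). mt-Co1, in contrast, gave 0.05 (adjusted p = 0.876), mt-Rnr1 0.04 (0.935) and mt-Rnr2 0.27 (0.632). Among the 13 mRNAs, mt-Co1 took 41.6%, 43.2% and 40.9% of the counts in WT and 47.0%, 48.5% and 52.6% in K74R hosts. These are shares as counted: the 6 mRNAs within the copy held only 0.258% to 0.456% of the same counts in tumors. They are no measure of the true make-up of mitochondrial mRNA. The share of mt-Nd5 was 11.2%, 10.6% and 9.99% in WT and 8.33%, 8.07% and 7.42% in K74R hosts. mt-Nd6 counts were 32.8%, 35.1% and 39.3% of mt-Nd5 counts in WT and 27.1%, 29.0% and 32.6% in K74R hosts. Over the libraries of both genotypes pooled, mt-Nd6 correlated with mt-Nd5 at 0.949 in tumors, 0.968 in bone marrow and 0.802 in MSC (Pearson, n = 6, 6 and 4). In tumors the gap between the genotypes in both genes enters this value, so it does not measure how they vary together within a genotype. With mt-Co1 the values were -0.10, 0.80 and 0.37. With CT010467.1, a gene annotated as rRNA and taken up below, they were 0.975, 0.466 and -0.491. The part of mt-Nd5 transcripts in the mt-Nd6 counts was not tested. The tRNA mt-Tl2 had 10, 6 and 9 counts in WT against 36, 27 and 27 in K74R hosts (log2 fold change 1.89, adjusted p = 0.194). Among genes within the nuclear copy, mt-Co2 gave -0.75, mt-Nd4l -0.85, mt-Atp6 0.38, mt-Co3 0.24, mt-Atp8 0.46 and mt-Nd3 0.29, all with adjusted p of 0.424 or more. The mt-Co2 value rests on WT replicate 1, which had 95.8 CPM where the other tumors had 28.7 to 42.0. Without that library it was -0.12, with another left out it was as far as -1.02, and with no filter on low counts it was called (adjusted p = 7.23e-10). The median log2 fold change of the 22 was -0.14, and that of all genes tested was 0.00.

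The other 5 genes called in the tumors, named after their values were seen, moved the same way as mt-Nd6. They were CT010467.1, annotated as an rRNA gene (log2 fold change -1.69), Gm23935 (-1.59), Gm15564 (-1.53), Lars2 (-1.52) and Gm24270 (-1.51). Lars2 encodes the mitochondrial leucyl-tRNA synthetase, which charges mt-Tl1 and mt-Tl2. It had 1447, 1590 and 1843 CPM in WT against 493.1, 539 and 673 CPM in K74R hosts. CT010467.1 had 7053, 7431 and 9480 CPM in WT against 1912, 2582 and 2944 CPM. In bone marrow CT010467.1 ran from 1787 to 7814 CPM in WT and from 4951 to 8775 CPM in K74R, while mt-Nd6 ran from 805 to 1183 and from 815 to 969 CPM. Lars2 moved with CT010467.1 there. WT replicates 1 to 3 had 303, 258 and 1165 CPM of Lars2 and 2048, 1787 and 7814 CPM of CT010467.1. Whether the Lars2 counts measure its mRNA was not tested. A nuclear-annotated rRNA gene and mt-Nd6 thus differed in the same direction in the tumors, and the part of rRNA content in the mt-Nd6 difference was not tested. Macrophage markers summed to 823 to 908 CPM in tumors of WT and 485 to 736 CPM in tumors of K74R hosts, and the leukocyte marker Ptprc to 118 to 142 and 54.8 to 120 CPM. Stroma markers overlapped, at 1806 to 3577 and 1395 to 3459 CPM. The part of cell make-up in the mt-Nd6 value was not tested.

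**Figure D4:**
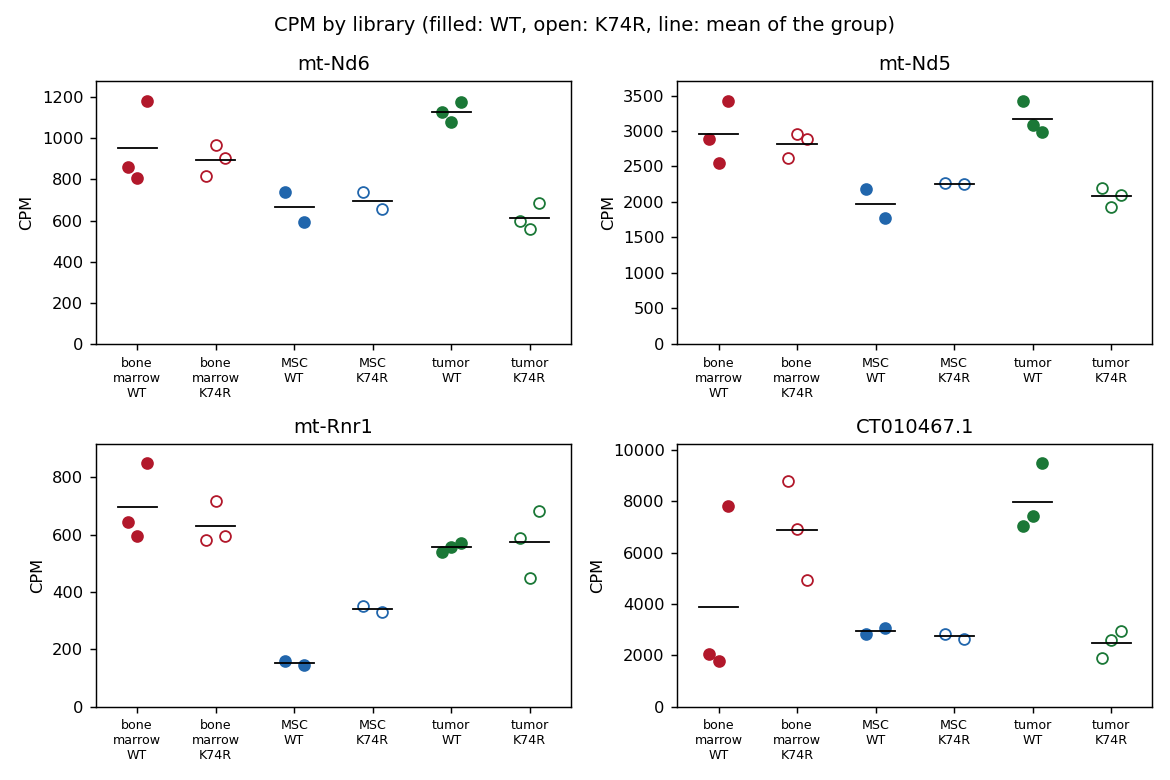
CPM of mt-Nd6, mt-Nd5, mt-Rnr1 and the rRNA gene CT010467.1 by library; points are libraries, filled for WT and open for K74R, and lines are group means. In tumors the K74R points of mt-Nd6 (561 to 686) lie below the WT points (1081 to 1176), and in MSC the K74R points of mt-Rnr1 (331 and 352) lie above the WT points (146 and 159).

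In MSC, mt-Rnr1, the RNA of the small ribosomal subunit, was higher in K74R. Its counts were 2721 and 2338 in WT against 6596 and 5458 in K74R, or 159 and 146 CPM against 352 and 331 CPM. The groups did not overlap, and the log2 fold change was 1.18 ± 0.19 (SE; edgeR, adjusted p = 0.0392). It was the 1 gene of 24 mitochondrial genes tested that was called, beside 484 of 14475 genes in all (3.34%), and no other of the 24 had an unadjusted p under 0.05. Leaving out any 1 of the 4 libraries took the adjusted p to 0.0577 to 0.161, with the lone library of an arm assumed to vary like the rest. mt-Rnr2, the RNA of the large subunit, had 915 and 405 CPM in WT against 983 and 1167 CPM in K74R (log2 fold change 0.73, adjusted p = 0.312), and its WT libraries lay further apart than WT replicate 1 lay from either K74R library. The mRNAs outside the copy gave -0.12 (mt-Nd2), -0.08 (mt-Co1), 0.07 (mt-Nd4), 0.09 (mt-Nd6), 0.21 (mt-Nd5), 0.23 (mt-Nd1) and 0.39 (mt-Cytb). The median over the 24 genes was 0.14, beside 0.00 over all genes tested. Cell markers moved with genotype here. Macrophage markers summed to 6328 to 8254 CPM in WT and 2122 to 4005 CPM in K74R, all 7 at 1 CPM or more. Ptprc stood at 202 to 412 and 76.6 to 204 CPM, and adipocyte markers at 44.5 to 62.3 and 576 to 584 CPM. Their part in the mt-Rnr1 difference was not tested.

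In bone marrow no mitochondrial gene of 21 tested was called by edgeR or limma-voom, beside 115 of 14872 genes in all (0.773%). Of the 21, 5 had an unadjusted p under 0.05, and DESeq2, which called 518 of 14872 genes in all, called 1, mt-Nd1. Its values were 3629, 3429 and 4324 CPM in WT against 2578, 3289 and 2926 CPM in K74R, without overlap (log2 fold change -0.41 ± 0.13 SE; edgeR, adjusted p = 0.179). mt-Tl2 had 17, 20 and 12 counts in WT against 1, 3 and 9 in K74R (log2 fold change -1.86, adjusted p = 0.167), the opposite direction to its counts in tumors. mt-Nd2 gave -0.36 (adjusted p = 0.210), mt-Rnr2 -0.35 (0.356), mt-Co1 -0.25 (0.357), mt-Rnr1 -0.18 (0.576), mt-Nd4 -0.12 (0.605), mt-Nd6 -0.12 (0.719), mt-Nd5 -0.10 (0.721) and mt-Cytb -0.10 (0.661). The median over the 21 was -0.22, against -0.00 over all genes. Neutrophil markers summed to 33462 to 33964 CPM in WT and 28528 to 29145 CPM in K74R, and B cell markers to 807 to 1639 and 1654 to 2386 CPM. Erythroid markers overlapped, at 35283 to 42736 and 36164 to 43718 CPM. Their part in these values was not tested.

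**Figure D5:**
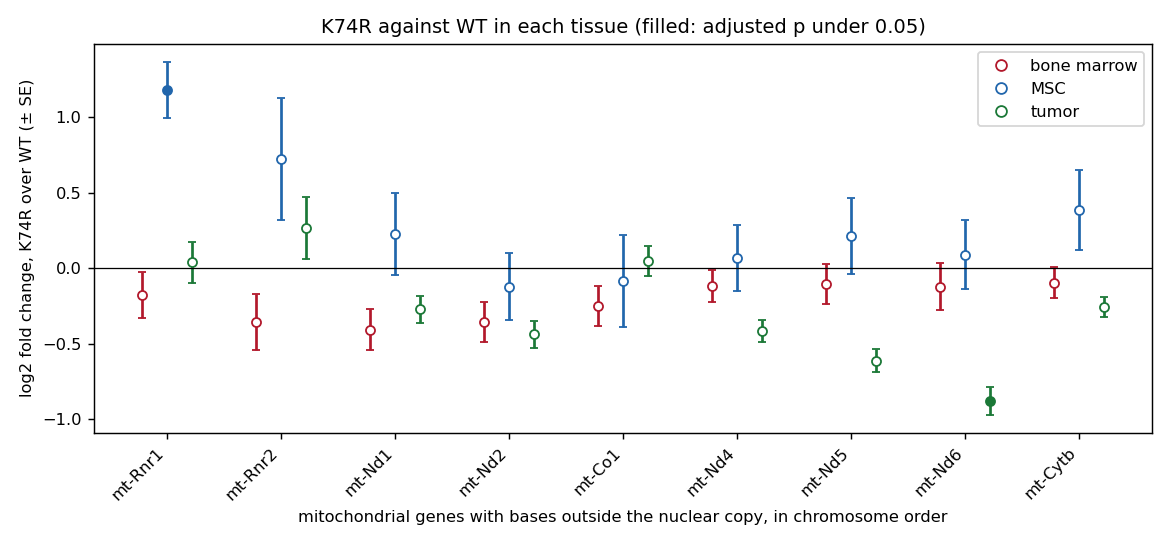
Log2 fold change of K74R over WT (points) with its SE (bars) for the 9 mitochondrial genes with sequence outside the chromosome 1 copy, in bone marrow, MSC and tumor; filled points passed the adjusted p threshold. Only mt-Rnr1 in MSC (1.18) and mt-Nd6 in tumors (-0.88) are filled.

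The genotype difference itself was compared between tissues with interaction terms in an edgeR model of all 16 libraries. Between MSC and bone marrow, mt-Rnr1 differed by 1.38 on the log2 scale (adjusted p = 0.00227) and mt-Tl2 by 2.38 (0.0375), 2 of 25 mitochondrial genes beside 3427 of all 18191 genes (18.8%). Between tumors and MSC, 4 of the 25 differed, beside 1929 genes in all (10.6%). They were mt-Rnr1 (-1.16, adjusted p = 0.0103), mt-Nd5 (-0.84, 0.0161), mt-Nd6 (-0.99, 0.0161) and mt-Cytb (-0.66, 0.0294). Between tumors and bone marrow none did by edgeR, beside 7 genes in all (0.0385%), while 5 mitochondrial genes had an unadjusted p under 0.05. DESeq2 called 2, mt-Nd6 and mt-Tl2, beside 172 of 18191 genes in all, and limma-voom 0, beside 8 in all. mt-Nd6 gave -0.75 there by edgeR (adjusted p = 0.246) and mt-Tl2 3.75 (0.0749). By these terms the mt-Nd6 difference in tumors differed from that in MSC and was not shown to differ from that in bone marrow. This model shares 1 spread per gene over the tissues. In it K74R against WT in MSC called 4430 of 18191 genes, beside 484 of 14475 in the MSC libraries alone. Adjusted p-values of terms that involve MSC may therefore be too small. The MSC libraries enter both comparisons in which genes were called. Both mt-Rnr1 terms passed in all 24 alternatives. The mt-Nd5 term was lost without MSC WT replicate 2 (-0.73, adjusted p = 0.0580), and the mt-Nd6 term without that library (-0.87, 0.0626) or MSC K74R replicate 1 (-0.90, 0.0641). The mt-Cytb term was lost without MSC WT replicate 2 (-0.51, adjusted p = 0.0953), MSC K74R replicate 2 (-0.58), tumor WT replicate 1 (-0.64) or 3 (-0.65), or tumor K74R replicate 2 (-0.64) or 3 (-0.66). The mt-Tl2 term was lost without bone marrow WT replicate 1 (2.37), 2 (2.26) or 3 (2.50), bone marrow K74R replicate 1 (1.91) or 2 (2.18), MSC WT replicate 2 (2.04) or MSC K74R replicate 1 (1.94).

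The tissues were compared in the same model with the genotypes weighted equally, and the 3 comparisons share libraries. Most genes of the genome differed between tissues, so these counts are read beside large backgrounds. In tumors against bone marrow, 5 of 25 mitochondrial genes were higher and 7 lower, beside 14914 of 18191 genes called in either direction (82.0%). Among genes with sequence outside the copy, mt-Cytb was higher by 0.32 and mt-Co1 by 0.27, while mt-Nd4 (-0.18), mt-Nd6 (-0.30), mt-Nd5 (-0.32) and mt-Rnr1 (-0.39) were lower. The tRNAs mt-Tw (-1.24), mt-Tc (-1.25) and mt-Tn (-1.48) were lower as well. Within the copy, mt-Co2 (0.89), mt-Atp6 (0.67) and mt-Co3 (0.47) were higher as counted. WT tumor replicate 1 had 95.8 CPM of mt-Co2 where the other tumors had 28.7 to 42.0, and bone marrow had 17.6 to 24.6. Among WT libraries alone the mt-Nd6 difference was 0.05, and it lost its call without bone marrow WT replicate 3 (-0.19) and with library size alone as the scale (-0.15). The call of mt-Co1 was lost without bone marrow WT replicate 2 (0.22), bone marrow K74R replicate 3 (0.23) or tumor K74R replicate 3 (0.21). That of mt-Co3 was lost without bone marrow WT replicate 1 (0.43) or 2 (0.40), bone marrow K74R replicate 1 (0.46) or 3 (0.41), tumor WT replicate 2 (0.42) or tumor K74R replicate 3 (0.39). The call of mt-Nd4 was lost with 8 of the 12 libraries left out in turn, at -0.19 to -0.14, namely bone marrow WT replicates 1 and 3 and K74R replicate 2, tumor WT replicates 2 and 3 and all 3 K74R tumors, and with library size alone it was -0.02. In WT libraries alone the calls of mt-Nd5 (-0.10, adjusted p = 0.531), mt-Nd4 (-0.06, 0.637), mt-Co1 (0.09, 0.512) and mt-Co3 (0.21, 0.307) were lost too, and mt-Rnr2 was called lower (-0.69, 0.00876). With library size alone, mt-Nd5 (-0.17, adjusted p = 0.0775) and mt-Rnr1 (-0.23, 0.0558) were lost, and with relative log expression factors mt-Co1 (0.19, 0.0794) and mt-Co3 (0.39).

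In MSC against bone marrow, 2 mitochondrial genes were higher and 15 lower, beside 13998 genes called in either direction (77.0%). Both rRNAs were lower, mt-Rnr1 by a log2 fold change of -1.47 ± 0.14 (SE) and mt-Rnr2 by -1.19 ± 0.23. mt-Nd1 had the next lowest value outside the copy (-0.94), ahead of mt-Nd4 (-0.48), mt-Cytb (-0.45), mt-Co1 (-0.40), mt-Nd5 (-0.38) and mt-Nd6 (-0.38). mt-Nd1 lay at 1283 to 1901 CPM in MSC and 2578 to 4324 CPM in bone marrow, so no library overlapped. Lower as counted within the copy were mt-Atp8 (-1.13), mt-Atp6 (-1.04), mt-Co2 (-0.89) and mt-Co3 (-0.59). Of the tRNAs, mt-Tw (-1.06), mt-Tn (-0.76) and mt-Tc (-0.59) were lower, and mt-Te (1.41) and mt-Tl2 (1.19) were the 2 genes that were higher. The call of mt-Nd6 was lost without MSC WT replicate 2 (-0.29) or MSC K74R replicate 2 (-0.31), and that of mt-Tl2 without MSC WT replicate 1 (0.98). mt-Co3 lost its call without bone marrow WT replicate 3 (-0.48), MSC WT replicate 2 (-0.31) or MSC K74R replicate 1 (-0.55). mt-Tc lost it without bone marrow WT replicate 1 (-0.61) or 3 (-0.49), bone marrow K74R replicate 2 (-0.53) or 3 (-0.58), MSC WT replicate 2 (-0.44) or MSC K74R replicate 2 (-0.45). mt-Tw lost it with any of 10 libraries left out, furthest without bone marrow WT replicate 3 (-0.66, adjusted p = 0.150) and MSC WT replicate 2 (-0.71, 0.194), and at -1.13 to -0.96 without bone marrow K74R replicate 1 or 3, either MSC K74R library, any WT tumor or tumor K74R replicate 1. In WT libraries alone, neither gene called higher passed: mt-Tl2 gave 0.01 (adjusted p = 0.982) and mt-Te 0.68 (0.330). The calls of mt-Co1 (-0.48, adjusted p = 0.0772), mt-Co3 (-0.76, 0.129), mt-Nd6 (-0.48, 0.0891) and mt-Tw (-1.95, 0.0687) were lost there as well. Setting counts relative to the 13 mRNAs of each library moved the median of all genes from -0.07 to 0.34. That scale holds the sum of the 13 mRNAs equal, so values near 0 follow from it for mt-Co1 (0.06), mt-Cytb (0.01), mt-Nd5 (0.08) and mt-Nd6 (0.09).

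In tumors against MSC, 12 mitochondrial genes were higher and 4 lower, beside 13195 genes called in either direction (72.5%). mt-Rnr1 (1.09), mt-Nd1 (0.96), mt-Rnr2 (0.83), mt-Cytb (0.77), mt-Co1 (0.67), mt-Nd2 (0.32) and mt-Nd4 (0.30) were higher outside or partly outside the copy. So were mt-Co2 (1.78), mt-Atp6 (1.71), mt-Atp8 (1.20) and mt-Co3 (1.05) as counted, and mt-Tl1 (1.25). mt-Tn (-0.71), mt-Tc (-0.66), mt-Te (-1.56) and mt-Ty (-1.34), the last named after its value was seen, were lower. The call of mt-Tn was lost without MSC WT replicate 1 (-0.49), and that of mt-Tc without MSC WT replicate 1 (-0.51), MSC K74R replicate 1 (-0.52), tumor WT replicate 1 (-0.55) or 3 (-0.62), or tumor K74R replicate 2 (-0.55). mt-Ty lost its call without MSC WT replicate 1 (-1.17, adjusted p = 0.105), MSC K74R replicate 2 (-1.03, 0.175), tumor K74R replicate 1 (-1.14, 0.0708) or 3 (-1.29, 0.0548), and with library size alone (-1.13, 0.0610). It did not reach the filter on low counts in WT libraries alone or without bone marrow WT replicate 3. mt-Nd5 (0.06) and mt-Nd6 (0.08) did not pass the test in all libraries. They were called higher in WT libraries alone, at 0.50 (adjusted p = 0.0124) and 0.58 (0.00519), and with library size alone, at 0.28 (0.0150) and 0.29 (0.0282). In WT libraries alone the calls of mt-Tn (-0.41, adjusted p = 0.329), mt-Tc (-0.60, 0.185) and mt-Atp8 (0.83, 0.0936) were lost, and mt-Tl2 was called lower (-1.35, 0.0353). With library size alone, mt-Tn (-0.50, adjusted p = 0.0566) and mt-Tc (-0.44) were lost. The scale relative to the 13 mRNAs moved the median of all genes to -0.48 and shifted all genes by about the same amount, so mt-Nd2 and mt-Nd4 took values of -0.27 and -0.28, and mt-Nd5 and mt-Nd6 of -0.52 and -0.51. With library size alone as the scale, the median of all genes was 0.28 here, 0.17 in tumors against bone marrow and -0.14 in MSC against bone marrow.

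Nuclear genes that serve the mitochondrial genome were followed as 6 lists: maintenance and transcription of the mitochondrial DNA (21 genes), RNA processing and stability (29), translation factors (19), ribosomal proteins (78), respiratory chain subunits (78) and regulators in the nucleus (13). None of their members was called in any of the 3 genotype comparisons by edgeR or limma-voom. DESeq2 called 1 of 77 ribosomal protein genes in bone marrow, where it called 518 of 14872 genes in all. In MSC it called 6 of 77 respiratory chain subunits and 1 of 21 maintenance genes, beside 1906 of 14475 genes in all. In tumors it called 1 of 29 processing genes, beside 195 of 14779. Of the respiratory chain subunits, 24 of 76 tested had an unadjusted p under 0.05 in bone marrow, 23 of 77 in MSC and 13 of 77 in tumors. These are 31.6%, 29.9% and 16.9% of the list, beside 17.8%, 26.0% and 11.2% of all genes tested. In bone marrow 75 of the 76 had a negative log2 fold change (median -0.20, all genes -0.00), and in MSC 75 of 77 a positive one (median 0.41, all genes 0.00). In tumors 65 of 77 were positive (median 0.08, all genes 0.00), although the mitochondrial mRNAs had a median of -0.27. The mitochondrial ribosomal proteins ran likewise, with 73 of 77 negative in bone marrow (median -0.23), 73 of 77 positive in MSC (0.37) and 72 of 77 positive in tumors (0.11). Their members with an unadjusted p under 0.05 were 29, 20 and 10, or 37.7%, 26.0% and 13% of the list. In the 4 smaller lists such members numbered 0 to 5 in each comparison. Members of a list are not replicates, and these counts carry no test. The macrophage, adipocyte and neutrophil marker values given above lay apart between the same groups.

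The members with the smallest p in these lists did not pass the threshold by edgeR. In MSC, Polg2, the accessory subunit of the mitochondrial DNA polymerase, had 4.90 ± 0.36 CPM in K74R and 11.9 ± 0.70 CPM in WT (SD, n = 2; log2 fold change -1.26, edgeR, adjusted p = 0.0561). Ndufa4l2, a relative of a cytochrome c oxidase subunit, gave 1.82 (adjusted p = 0.0588), and Cox7b, a subunit of that enzyme, gave 1.04 (0.0613). In bone marrow the ribosomal protein gene Mrpl22 gave -0.52 (adjusted p = 0.0920) and the release factor Mtrf1l 0.55 (0.107). In tumors Trmt10c, a subunit of the nuclease that cuts tRNAs from the precursor, had 63.9 ± 3.5 CPM in K74R and 49.0 ± 2.1 CPM in WT hosts (SD, n = 3; log2 fold change 0.38, edgeR, adjusted p = 0.222). Mrpl12 gave 0.35 (0.353) and Mgme1, an exonuclease for mitochondrial DNA, 0.29 (0.353).

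Between tissues, counts for the nuclear lists are read beside the share of all genes called. In tumors against MSC, where 72.5% of all genes were called, 16 of 21 maintenance and transcription genes were higher and 2 lower, 18 and 3 of 29 processing genes, 10 and 2 of 19 translation factors, 55 and 1 of 77 ribosomal proteins and 54 and 7 of 77 respiratory chain subunits. Examples were Mgme1 (1.44), Lig3, the ligase of mitochondrial DNA (1.15), Pnpt1, a mitochondrial RNA exonuclease (1.89), Tsfm, an elongation factor (1.68), and Cyc1 of complex III (1.28), against Mterf2 (-2.07) and Ndufa4l2 (-4.57). In tumors against bone marrow, with 82.0% of all genes called, the counts higher and lower were 12 and 2, 20 and 6, 14 and 4, 50 and 6, and 40 and 7 for the same lists. Mrps6 (3.55), Top1mt, the mitochondrial topoisomerase (2.19), Fastkd3 (2.04) and Lrpprc, which stabilises mitochondrial mRNAs (1.04), were higher, and Mterf2 (-2.57) and Polg2 (-1.27) lower. In MSC against bone marrow, with 77.0% of all genes called, the counts were 4 higher and 12 lower, 6 and 17, 5 and 6, 15 and 23, and 17 and 33. Pnpt1 (-0.95) and Mterf1a (-1.38) were lower and Top1mt (0.89) and Rexo2 (0.73) higher. Of the 12 regulators tested, Nrf1, a transcription factor for respiratory genes, was lower in MSC than in bone marrow (-1.64) and in tumors than in bone marrow (-0.91), and higher in tumors than in MSC (0.73). Pprc1, a coactivator of that factor, was higher in tumors than in bone marrow (0.56) and MSC (0.83).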

How the data were processed

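The authors deposited 1 table of raw counts per gene for 16 libraries. TRIzol was used for extraction and the KAPA mRNA HyperPrep kit for the libraries, per the labels' protocols. The build was GRCm38, with Trimmomatic 0.38, HISAT2 2.1.0, featureCounts 1.6.0, FastQC and MultiQC named in the submitters' processing notes. The sources used here do not give the strand setting or the handling of reads with several alignments.

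All 55536 identifiers matched GENCODE M21. Copies of mitochondrial genes were found with blastn 2.17.0 among its transcripts (word size 16, E-value of at most 1e-05, at least 100 bases, near-identical from 99% identity). CPM are counts scaled to 1000000 of the library total, and the tests use trimmed mean of M-values (TMM) factors as well. Shares are over the library total. K74R was tested against WT within each tissue, with edgeR 4.0.16 in R 4.3.3 (filterByExpr by group, quasi-likelihood test, Benjamini-Hochberg adjustment over all genes tested, threshold 0.05, prior count 0.125). Tissues and interactions were contrasts in 1 model of 16 libraries in 6 groups. Interactions between the genotype and the tissue were adjusted separately. Shares were tested by exact permutation over libraries. DESeq2 1.42.0 and limma 3.58.1 (voom) were alternatives, as were other scalings, no filter, a replicate block and each library left out. Scaling to the mitochondrial mRNAs in the genotype comparisons was added after seeing the data.

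The members and lists were chosen with earlier results of these data known. All mRNAs and rRNAs are named, tRNAs and nuclear copies with a mean count of at least 10, and of each nuclear list up to 2 members per direction and comparison with the smallest p, of which examples are given. On simulated counts with 200 changed genes, the test recovered 95 of 100 genes changed 2-fold and 100 of 100 changed 4-fold in the tumor design (14544 genes, 7 false calls), 96 and 100 in bone marrow (14622 genes, 15 false calls), and 13 and 89 in MSC (14180 genes, 10 false calls). Replicates differed beyond sampling noise in every group.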

Additional observations from a re-analysis of the deposited data

Results flagged for a closer look

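Of 99 sets of 4 or 6 libraries of 1 tissue, 14 held a library whose gap to the others was large for the range of the set, where chance marks about 1 in 20. In bone marrow, WT replicate 3 had 2846 CPM of mt-Rnr2, with the other 5 libraries at 1653 to 2067, and 3.76 CPM of mt-Tw, with the others at 0.537 to 1.29. The copy Gm29216 had 61.9 CPM in K74R replicate 1 (others 7.45 to 17.5), and Gm10222 had 3.78 CPM in WT replicate 1 (others 1.90 to 2.56). In MSC, WT replicate 2 had 1772 CPM of mt-Nd5 (others 2185 to 2268) and 23.2 CPM of Gm29216 (others 4.38 to 6.97). K74R replicate 1 had 0.427 CPM of mt-Atp8 (others 0.702 to 0.752), and K74R replicate 2 had 0.909 CPM of mt-Nd4l (others 1.19 to 1.23).

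In tumors, K74R replicate 3 stood apart in 3 sets: 14910 CPM of mt-Co1 (others 11630 to 12770), 135 CPM of Gm28661 (others 13.5 to 22.9) and 47.0 CPM of Gm28437 (others 17.9 to 26.6). WT replicate 1 had 95.8 CPM of mt-Co2, which shares 681 of its 684 bases with Gm28661, with the others at 28.7 to 42.0. WT replicate 3 had 0.178 CPM of mt-Th (others 0.927 to 1.36), and K74R replicate 2 had 5.78 CPM of Gm28439 (others 7.82 to 8.99).

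The effect of genotype differed between tissues by interaction terms for 6 pairs of gene and tissues. MSC differed from bone marrow for mt-Rnr1 (1.38) and mt-Tl2 (2.38). Tumors differed from MSC for mt-Rnr1 (-1.16), mt-Nd5 (-0.84), mt-Nd6 (-0.99) and mt-Cytb (-0.66), all on the log2 scale.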

How the results depend on the processing

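Counts of mitochondrial genes called by genotype were small and moved with the fit. In MSC the count of 1 became 2 without a filter on low counts and 0 without any 1 library (0 to 0). In bone marrow the count of 0 became 1 with DESeq2, 3 without a filter and 0 to 3 with a library left out (3 without WT replicate 2). In tumors the count of 1 became 5 with DESeq2, 7 without a filter, 0 in the model of all 16 libraries, 2 with the replicate block and 0 to 2 with a library left out. The number of all genes called moved as well. Without a filter it was 3063 of 25749 in MSC, 875 of 28468 in bone marrow and 810 of 29690 in tumors, where the main fits called 484, 115 and 6. DESeq2 called 518 of 14872 in bone marrow and 195 of 14779 in tumors. For tumors the model of 16 libraries called 0 of 18191 and the block 13 of 14779. The 6 interactions became 11 with DESeq2, 12 without a filter and 2 to 10 with a library left out. In MSC against bone marrow the 17 genes became 11 in WT libraries alone and 9 relative to the mitochondrial mRNAs, beside 11374 of 15985 and 13623 of 18191 genes in all. For the interactions, DESeq2 called 172 genes in all between tumors and bone marrow, 4046 between MSC and bone marrow and 2564 between tumors and MSC. Without a filter these were 603, 3832 and 2665, and in the main fit 7, 3427 and 1929.

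Of the shares, tumors against bone marrow gave 0.497 points (adjusted p = 0.0312) for the 13 mRNAs alone and 0.394 to 0.572 with a library left out. The rRNA difference between the same tissues gave -1.94 points for mt-Rnr2 alone (adjusted p = 0.0584) and -3.19 to -2.26 with a library left out (adjusted p = 0.0584 without bone marrow WT replicate 3 or K74R replicate 2), and the mt-Nd6 share -1.11 to -0.776. The genotype difference in MSC ran from -0.0867 to 0.312 points with a library left out, and turned negative without WT replicate 2. The cause of these changes was not tested.

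Values of single genes turned sign in 18 cases. Of these, 10 came with the scale relative to the mitochondrial mRNAs, which shifts all genes by about the same amount. On that scale, in MSC against bone marrow, mt-Co1 gave 0.0592, mt-Cytb 0.00504, mt-Nd2 0.263, mt-Nd5 0.0756 and mt-Nd6 0.0894. In tumors against MSC, mt-Nd2 gave -0.27, mt-Nd4 -0.28, mt-Nd5 -0.52 and mt-Nd6 -0.51, and in tumors against bone marrow mt-Nd2 gave -0.0110. In WT libraries alone, mt-Th gave -0.26 in MSC and -0.34 in tumors against bone marrow, mt-Nd6 0.0478 and mt-Tl2 -1.39 in tumors against bone marrow. Without MSC WT replicate 2, the mt-Co3 interaction of MSC with bone marrow gave -0.16 (range -0.16 to 1.17), and in tumors against MSC mt-Nd5 gave -0.0147 (range -0.0147 to 0.118) and mt-Nd6 -0.00612 (range -0.00612 to 0.133). With the replicate block that mt-Nd6 value was -0.00103.

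Whether replicate numbers pair the libraries was not settled by their correlations. Deviations of same-numbered libraries correlated at 0.43, 0.24 and -0.20 in bone marrow, 0.02, -0.005 and 0.14 in tumors and -0.29 in MSC, and not every library correlated best with its own number. With 2 libraries per arm in MSC, the same-numbered value and the crossed value (0.29) mirror each other by construction. With the replicate block, 0 mitochondrial genes were called in bone marrow, 1 in MSC (also with crossed numbers), 2 in tumors, 15 in MSC against bone marrow, 16 in tumors against MSC, 12 in tumors against bone marrow and 6 as interactions. The genotype differences in share with the replicate block kept their values of -0.360, 0.113 and -0.329 points (exact paired permutation p = 0.500, 1.0 and 0.250). The tRNAs had few counts, and a count of 0 allows up to 0.213 CPM in the shallowest library.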
